A study of Mus musculus with 8 samples.

Results

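The 7 genes described here, Gadd45b, Cdkn2c, Cdkn2d, Btg2, Bcl2l1, Bnip3 and Bid, are regulators of growth arrest and apoptosis, out of 5822 named genes on the array. They were listed by symbol, and they were chosen by their Cx43 KO minus WT differences on these same arrays, so those differences are given as descriptions and without a test. RNA of cultured cortical astrocytes from newborn mice was compared between 4 arrays of mice lacking connexin43 (Cx43 KO) and 4 arrays of wild-type mice (WT). Connexin43 forms most gap junction channels between astrocytes. Each array set astrocyte RNA against 1 common pool of adult mouse tissue RNA, and values are log2 ratios, astrocytes over pool, centred on the median of each array (the base of the logarithm is assumed). The strain C57BL/6j is named for the WT mice and for the pool. Cx43 KO 3 is titled Cx43 only, without the word KO. The labels used here do not give the strain of the Cx43 KO mice or how the null allele was made. They also do not state how many animals gave each culture, or whether the arrays of a genotype came from separate cultures. P-values therefore measure only the spread between these arrays, which may be technical.

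Of the 9568 features, 3506 to 5514 carried a ratio on an array. The number of arrays with a value for a gene limits the precision of its difference. The annotation names 0 features for Gja1, the gene of connexin43, so the targeted transcript was not analysed here. Among the astrocyte markers on the array, all 4 that were tested lay above the pool in their mean and 3 passed the test. The 6 tested genes typical of adult tissues such as lung and stomach all lay below it, with a median of -3.40, and this set the direction of the ratio. Cx43 KO 4 stood apart from the other arrays. The mean of 3 astrocyte markers was 0.46 on it, against 1.75 to 2.02 on the other Cx43 KO arrays and 1.86 to 2.20 on the WT arrays. The mean of 5 microglia and macrophage markers was 2.39 on it, against -0.24 to 0.87 on the other Cx43 KO arrays and 0.43 to 1.37 on the WT arrays. The mean of 3 fibroblast, meningeal and mural markers was 1.95 on it, against -1.61 to -0.27 on the other Cx43 KO arrays and -0.06 to 1.66 on the WT arrays. Between genotypes and with Cx43 KO 4 included, 0 of 4 tested astrocyte markers were higher in Cx43 KO, with a median difference of -0.56. All 4 were lowest on Cx43 KO 4, with Aldoc, Id4 and Ttyh1 at -1.07, -0.52 and -0.59. On the other Cx43 KO arrays these 3 ran over -0.19 to 0.64, 1.58 to 3.05 and 1.08 to 1.65, overlapping WT. Fabp7 was 3.06 on Cx43 KO 4, 3.63 to 4.45 on the others and 4.19 to 4.61 in WT. Also with Cx43 KO 4, the microglia and macrophage markers had 1 of 5 higher and a median of -0.40. The fibroblast, meningeal and mural markers had 1 of 4 higher and a median of -1.34. Of these 13 markers, 0 passed the adjusted threshold of limma. At an unadjusted p below 0.05 were 2 of them, the astrocyte marker Fabp7 (-0.72) and Pdgfra (-2.27), both lower in Cx43 KO. The part of these marker differences in the results that follow was not tested. Of the microglial markers on the array, Fcer1g and Ctss had a ratio on 0 arrays, as did Slc1a2 of the astrocyte list. In such mixed cultures fewer cells of a type and less RNA per cell cannot be told apart.

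Cells leave the division cycle when inhibitors bind the cyclin-dependent kinases that would phosphorylate the retinoblastoma protein. Cdkn2c (p18) and Cdkn2d (p19) belong to the INK4 family, which binds Cdk4 and Cdk6. Gadd45b is a stress-induced protein that acts on mitogen-activated kinase signalling, and Btg2 is an antiproliferative gene induced through p53. Apoptosis through mitochondria is set by the BCL2 family, in which Bcl2l1 (its long form is Bcl-xL) protects the outer membrane, Bid is cleaved by caspase-8 and then activates the pore-forming Bax and Bak1, and Bnip3 is a mitochondrial outer membrane protein that promotes mitophagy and is induced by hypoxia through HIF.

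Promoters are shown for the member with the largest difference, Gadd45b, for Bnip3, whose regulation by hypoxia is well known, and for the INK4 pair, which differed in opposite directions. Each window of 300 bases runs 5′ to 3′ across a RefSeq start site of GRCm38.p6, and capitals mark matches on either strand to ACGTG (the core bound by HIF), GGGCGG (the GC box) and CCAAT.
Gadd45b, chr10:80929841-80930140, plus strand: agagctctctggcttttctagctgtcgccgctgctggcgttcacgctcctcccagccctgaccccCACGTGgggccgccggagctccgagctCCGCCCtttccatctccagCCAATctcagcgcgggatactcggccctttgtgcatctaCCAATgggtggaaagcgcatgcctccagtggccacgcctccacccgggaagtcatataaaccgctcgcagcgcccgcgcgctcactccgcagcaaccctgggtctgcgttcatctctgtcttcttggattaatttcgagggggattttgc
Bnip3, chr7:138909457-138909756, minus strand: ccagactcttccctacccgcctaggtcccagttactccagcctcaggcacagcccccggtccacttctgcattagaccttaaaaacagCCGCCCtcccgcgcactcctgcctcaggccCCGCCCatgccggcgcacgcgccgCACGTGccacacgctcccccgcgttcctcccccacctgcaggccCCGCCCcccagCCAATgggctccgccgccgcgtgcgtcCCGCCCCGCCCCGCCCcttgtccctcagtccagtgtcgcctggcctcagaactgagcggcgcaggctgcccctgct
Cdkn2c, chr4:109666707-109667006, minus strand: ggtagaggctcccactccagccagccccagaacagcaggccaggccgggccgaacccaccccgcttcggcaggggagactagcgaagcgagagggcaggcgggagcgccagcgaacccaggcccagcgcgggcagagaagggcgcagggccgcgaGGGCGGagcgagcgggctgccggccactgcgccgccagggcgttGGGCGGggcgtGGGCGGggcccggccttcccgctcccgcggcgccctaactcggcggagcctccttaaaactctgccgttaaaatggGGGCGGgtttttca
Cdkn2d, chr9:21291160-21291459, minus strand: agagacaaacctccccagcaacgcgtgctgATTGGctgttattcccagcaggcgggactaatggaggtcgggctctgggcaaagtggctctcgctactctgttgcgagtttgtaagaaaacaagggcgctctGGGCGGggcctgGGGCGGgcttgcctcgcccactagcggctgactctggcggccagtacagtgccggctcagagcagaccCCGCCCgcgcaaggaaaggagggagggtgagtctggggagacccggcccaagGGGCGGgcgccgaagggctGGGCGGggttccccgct

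All 7 members matched the RefSeq promoter table, Cdkn2c with 2 start sites and Bcl2l1 with 3. Matches on both strands were counted over every window of that length, and motifs could overlap. The Gadd45b and Bnip3 windows each hold the palindrome CACGTG, which matches ACGTG on both strands, and 19.6% of 32851 promoters of the same length hold ACGTG. The second Cdkn2c window, which is not shown, holds 4 such matches, and the Cdkn2d, Btg2, Bid and 3 Bcl2l1 windows hold 0. GC boxes number 5 in Cdkn2d, 4 in the Cdkn2c window shown, 6 in Bnip3 where some overlap, 3 each in Btg2 and Bid, and 1 in Gadd45b, while the 3 Bcl2l1 windows hold 0 (35.7% of promoters hold at least 1). CCAAT is held by 37.4% of promoters. It matches in the Gadd45b, Cdkn2d, Btg2 and Bnip3 windows and in the second Cdkn2c window. The p53 decamer was found in the Cdkn2d window, against 8.36% of promoters, and TTTNGCGC, an E2F motif, in 1 Bcl2l1 window, against 1.38%. These are matches of letters in these windows.

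Setting Cx43 KO against WT asks what the loss of connexin43 goes along with in the astrocyte transcriptome. Gadd45b, Cdkn2d, Bcl2l1 and Bnip3 lay higher in Cx43 KO astrocytes, by 0.53 to 0.71 on the log2 scale, Cdkn2c and Bid lay lower, and Btg2 had the same mean in both genotypes within 0.02. Arrest genes and BCL2-family genes thus each held members that differed both ways. Over all 3505 genes and unnamed features fitted with limma, 0% passed at an adjusted p of 0.05, so no member passed either, and 7.5% lay below an unadjusted p of 0.05. Of the members, 4 of 7 lay below that unadjusted threshold, and nothing is read from this count because these differences chose the members. The plot of values by array shows every measurement behind these differences.

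**Figure D1:**
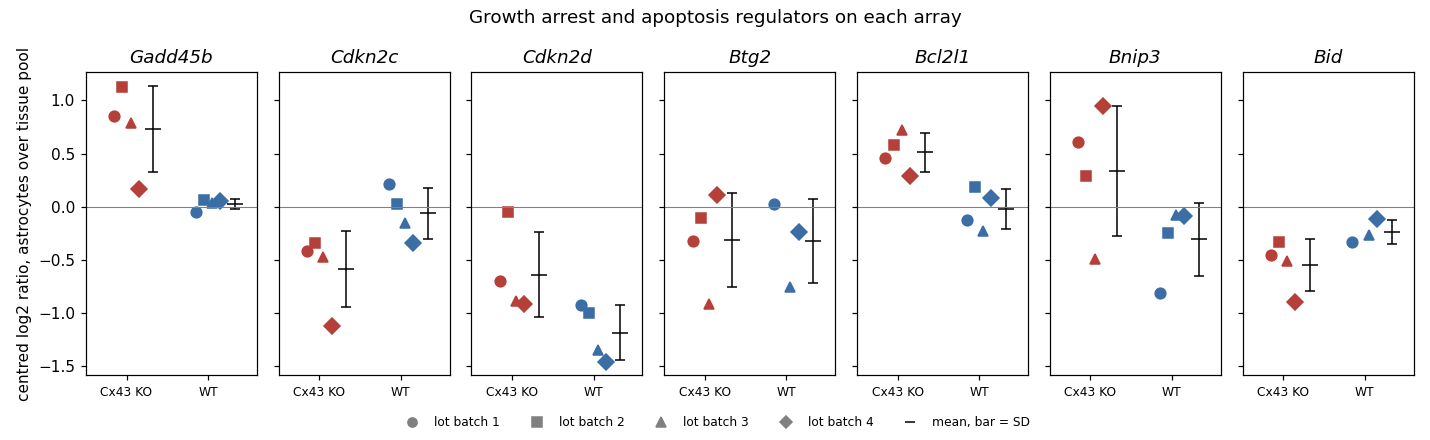
Centred log2 ratio of astrocytes over the tissue pool (vertical axis) for each of the 7 genes on each array, Cx43 KO left and WT right, with the symbol giving the lot batch and the bar the mean ± SD. The 4 WT values of Gadd45b lie between -0.05 and 0.06 and the Cx43 KO values between 0.16 and 1.12, while both genotypes of Btg2 spread over a similar range.

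Among the arrest genes, Gadd45b had log2 ratios of 0.85, 1.12, 0.79 and 0.16 on Cx43 KO 1 to 4, against -0.05, 0.06, 0.03 and 0.05 on WT 1 to 4. The WT arrays agreed within a narrow band around the array median, and all Cx43 KO arrays lay above it, Cx43 KO 4 by little. The means were 0.73 ± 0.41 (SD, n = 4) in Cx43 KO and 0.02 ± 0.05 (SD, n = 4) in WT, a difference of 0.71 (SE 0.21), which is 1.64-fold. The Cx43 KO array farthest from the others was Cx43 KO 4, on which microglial markers stood high, and without it the difference was 0.90. Gadd45b lies on the same chromosome as Gja1, with 299 protein-coding genes between them in the RefSeq order.

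Cdkn2d, which encodes the p19 inhibitor, had ratios of -0.70, -0.05, -0.89 and -0.92 on Cx43 KO 1 to 4, against -0.93, -1.01, -1.35 and -1.46 on WT 1 to 4. All 8 centred values lay below the pool, while without centring the highest Cx43 KO value was 0.23. The lowest Cx43 KO value lay above the highest WT value by 0.014 only, and without centring the groups overlapped. The means were -0.64 ± 0.40 (SD, n = 4) in Cx43 KO and -1.19 ± 0.26 (SD, n = 4) in WT, a difference of 0.55 (SE 0.23), or 1.46-fold. Cx43 KO 2 gave the highest value, and without it the difference was 0.35.

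Cdkn2c, its p18 paralog, went the other way, with ratios of -0.41, -0.34, -0.48 and -1.12 on Cx43 KO 1 to 4, against 0.22, 0.03, -0.16 and -0.34 on WT 1 to 4. The groups touched, since the highest Cx43 KO and the lowest WT value were both -0.34. The means were -0.59 ± 0.36 (SD, n = 4) in Cx43 KO and -0.06 ± 0.24 (SD, n = 4) in WT, a difference of -0.53 (SE 0.22). Here too Cx43 KO 4 was the Cx43 KO array farthest from the others and the lowest, and without it the difference was -0.35. Cdkn2c and Cdkn2d thus differed by similar amounts in opposite directions, although the test that would compare them was not run because both were chosen for these differences.

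Btg2 had ratios of -0.33, -0.11, -0.92 and 0.11 on Cx43 KO 1 to 4, against 0.03, -0.76 and -0.24 on WT 1, 3 and 4, with WT 2 missing. The groups overlapped over nearly their whole range, and array 3 was the lowest of each genotype. The means were -0.31 ± 0.44 (SD, n = 4) in Cx43 KO and -0.32 ± 0.40 (SD, n = 3) in WT, a difference of 0.01 (SE 0.29), with a 95% interval of -0.64 to 0.66. This interval reaches nearly as far up as the difference of Gadd45b. Leaving out Cx43 KO 3 gave 0.21 and leaving out Cx43 KO 4 gave -0.13.

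Among the BCL2-family genes, Bcl2l1 had ratios of 0.46, 0.58, 0.72 and 0.29 on Cx43 KO 1 to 4, against -0.12, 0.18, -0.23 and 0.08 on WT 1 to 4. All Cx43 KO arrays lay above all WT arrays, and the spread was alike in both genotypes. The means were 0.51 ± 0.18 (SD, n = 4) in Cx43 KO and -0.02 ± 0.19 (SD, n = 4) in WT, a difference of 0.53 (SE 0.17), or 1.45-fold. The array feature does not tell the long, protective form of Bcl2l1 from its short form.

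Bnip3 had ratios of 0.61, 0.29, -0.49 and 0.95 on Cx43 KO 1 to 4, against -0.81, -0.25, -0.08 and -0.09 on WT 1 to 4. The groups overlapped because Cx43 KO 3 lay below 3 of the WT arrays. The means were 0.34 ± 0.62 (SD, n = 4) in Cx43 KO and -0.31 ± 0.35 (SD, n = 4) in WT, a difference of 0.65 (SE 0.30), the widest spread of the members. Without lot batch 1 the difference was 0.39 and without lot batch 3 it was 1.00. The highest value was that of Cx43 KO 4, the array that stood apart in its markers. Without this array the difference was 0.44.

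Bid, the only member that links death receptors to mitochondria, had ratios of -0.46, -0.33, -0.51 and -0.90 on Cx43 KO 1 to 4, against -0.33, -0.27 and -0.12 on WT 1, 3 and 4, with WT 2 missing. The groups overlapped only through Cx43 KO 2 and WT 1, both at -0.33. The means were -0.55 ± 0.25 (SD, n = 4) in Cx43 KO and -0.24 ± 0.11 (SD, n = 3) in WT, a difference of -0.31 (SE 0.20). Cx43 KO 4 was the lowest array, and without it the difference was -0.19.

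Of the 5 members measured on all 8 arrays, 4 had genotypes that did not overlap, against 4.2% of 2596 genes and features with 8 values. Gadd45b, Cdkn2d and Bcl2l1 had every Cx43 KO array above every WT array (1.73% of the 2596) and Cdkn2c every one below (2.47%). This is a count fixed by the choice of members from which nothing is read. It also rested on the scaling. With quantile or scale normalization Cdkn2c overlapped and 3 remained, and with no centring of the arrays 0 of the 5 were free of overlap, while the differences kept their sign for all 5.

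Lot batch, which the labels give as a number shared by 1 Cx43 KO and 1 WT array, allowed a comparison within each batch. Gadd45b differed by 0.90, 1.07, 0.76 and 0.11 in lot batches 1 to 4, Cdkn2d by 0.22, 0.95, 0.47 and 0.55, and Bcl2l1 by 0.58, 0.40, 0.95 and 0.21. Each of these genes was higher in Cx43 KO in all 4 batches, though by less in lot batch 4 for Gadd45b and Bcl2l1. Cdkn2c was lower in all 4, by -0.63, -0.37, -0.32 and -0.78. Bnip3 differed by 1.42, 0.53, -0.41 and 1.04, so lot batch 3 ran against the rest. Of genes and features with 8 values, 16% had 1 sign in all 4 batches, against 4 of the 5 members, again a count fixed by their choice. Bid differed by -0.12, -0.24 and -0.78 and Btg2 by -0.35, -0.16 and 0.35 in lot batches 1, 3 and 4, and neither had a pair in lot batch 2.

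**Figure D2:**
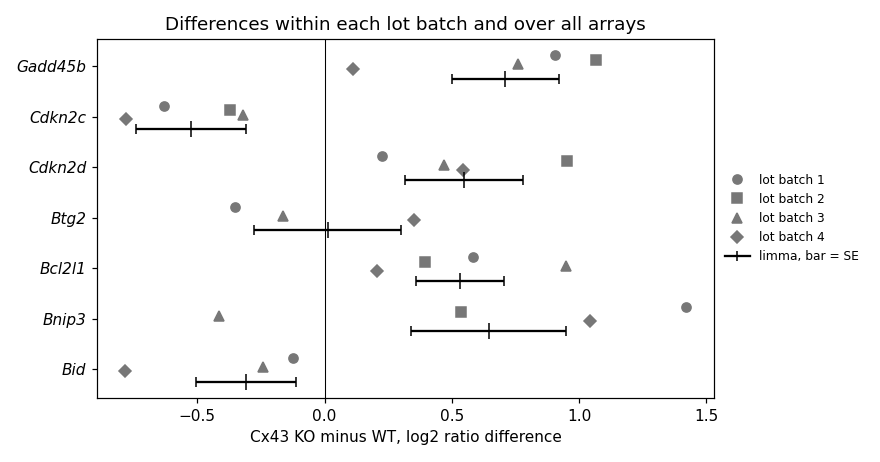
Cx43 KO minus WT difference in log2 ratio (horizontal axis) for each gene within each lot batch (grey symbols), with the difference over all arrays and its SE from limma in black. Gadd45b, Cdkn2d and Bcl2l1 lie right of 0 and Cdkn2c left of 0 in all 4 lot batches, while Bnip3 falls to -0.41 in lot batch 3 and Btg2 lies on both sides of 0.

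Each member was measured by 1 feature, so a comparison feature by feature gave the same differences (0.71 for Gadd45b down to -0.53 for Cdkn2c) and could not check 1 feature against another. Over the 3894 features fitted singly, the SE of Gadd45b was 0.21 and that of Bcl2l1 0.18.

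The ratio to the tissue pool, averaged over both genotypes, was not itself used to choose the members. It comes from the same arrays and the same fit as the differences that were. Cdkn2d lay lowest, at -0.91 (SE 0.12, limma adjusted p = 4.8e-05), which is 1.88-fold below the array median. Bid lay at -0.39 (SE 0.10, adjusted p = 0.00549) and Cdkn2c at -0.33 (SE 0.11, adjusted p = 0.0204), both below the pool. Gadd45b lay above it at 0.38 (SE 0.11, adjusted p = 0.00826), as did Bcl2l1 at 0.25 (SE 0.09, adjusted p = 0.0265). Bnip3 at 0.01 (SE 0.15, adjusted p = 0.943) and Btg2 at -0.32 (SE 0.14, adjusted p = 0.0750) did not pass. The call was thus made for 5 of 7 members, 2 above and 3 below, where 68.4% of all genes and features passed, 34.7% above and 33.7% below, so the members did not stand out by it. For Gadd45b and Bcl2l1 the mean of both genotypes hides that the WT means, 0.02 and -0.02, lay at the array median. Their calls above the pool rest on the Cx43 KO means, 0.73 and 0.51, which also entered the choice of members. Likewise the WT mean of Cdkn2c, -0.06, lay near the array median. Its call below the pool rests largely on its Cx43 KO mean, -0.59, which entered the choice too. With lot batch as a replicate block Bcl2l1 no longer passed (adjusted p = 0.0669). Without centring, Cdkn2c (-0.11, adjusted p = 0.420) and Bid (-0.19, adjusted p = 0.148) no longer passed, while Cdkn2d (-0.70, adjusted p = 0.000505) still did. The pool was 1 RNA, so its own spread is not in these errors, and ratios of different genes do not rank their transcript levels.

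The same ratio was read for the relatives of the members. The BCL2-family list also held Bnip genes and the Bag cochaperones. Of its 14 tested genes 7 lay above the pool and 6 below it at the adjusted threshold, Bnip3 being the one that did not pass. The survival gene Bcl2 lay furthest above, at 1.64 (SE 0.26, limma adjusted p = 0.000313), followed by Bad at 1.31 (SE 0.13) and Bak1 at 0.96 (SE 0.18). Bok lay furthest below, at -1.54 (SE 0.13), followed by Bcl2l12 at -1.04 (SE 0.13). Bcl2l1 at 0.25 and Bid at -0.39 lay closer to the pool than these relatives, which were named as the furthest from it. Others of the list lay at distances like that of Bid, such as Bnip3l at 0.39, Bag2 at 0.38 and Bag4 at -0.35. Of the 11 tested genes of the arrest list, which also holds regulators of p53, 5 lay above and 2 below the pool. Those below were the INK4 members Cdkn2c and Cdkn2d. Over all genes and features tested, 34.7% lay above and 33.7% below. The p53 antagonist Mdm2 lay above at 0.98 (SE 0.10), Ei24 at 1.18 (SE 0.12) and Ccng1 at 0.93 (SE 0.17), and Cdk6, the kinase that the INK4 proteins bind, at 1.43 (SE 0.13).

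**Figure D3:**
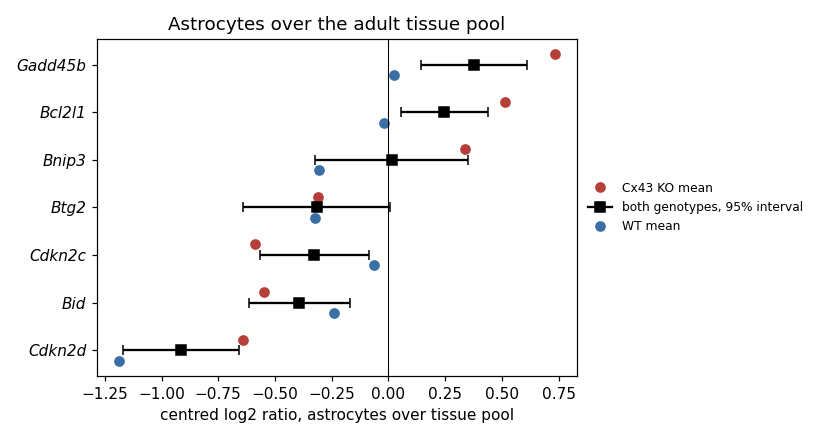
Centred log2 ratio of astrocytes over the adult tissue pool (horizontal axis), with the mean of both genotypes and its 95% interval in black, the Cx43 KO mean in red and the WT mean in blue. Cdkn2d lies lowest at -0.91 and Gadd45b highest at 0.38, and the intervals of Bnip3 and Btg2 include 0.

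Other genes of the same families and pathways were read beside the members. The array named 3 of 8 cyclin-dependent kinase inhibitors, 1 of 4 GADD45 genes, 3 of 6 BTG and TOB genes and 13 of 33 p53 and growth arrest genes. Of these, 11 were tested, 4 of them members, and 5 of the 7 others were higher and 2 lower in Cx43 KO. The median difference of the 11 genes was 0.36, beside 0.02 over all genes tested, of which 52.6% were higher. That of the 7 others was the same number, because the p53 antagonist Mdm2 (0.36, SE 0.19) is the middle gene of both sets. With quantile or scale normalization the median of the 11 was 0.20 or 0.22, and with exact 0 kept as a ratio, where the tested genes changed, the list's median was 0.15. The lists are described by counts and medians, and neither a list nor the difference between lists was tested. None of the 7 passed the adjusted threshold, and 1 of them, Ppp1r15a, lay below an unadjusted p of 0.05, higher in Cx43 KO, as did 3.85% of all genes tested. Ppp1r15a (GADD34), which recruits a phosphatase to the translation factor eIF2, averaged 0.55 in Cx43 KO and -0.04 in WT, a difference of 0.59 (SE 0.25, limma adjusted p = 0.655). Ei24, a p53-induced gene, differed by 0.51 (SE 0.24, measured on 3 Cx43 KO arrays), and the p53 target cyclin G1 (Ccng1) by 0.50 (SE 0.34). Btg3, a relative of Btg2, averaged -0.12 in Cx43 KO and -0.03 in WT, a difference of -0.09 (SE 0.25). Cdkn1a, the p21 inhibitor and best-known p53 target, had too few ratios for the fit, 1.92 and 3.28 on Cx43 KO 2 and 4, against 1.77 and 2.71 on WT 1 and 4, and is named after its values were seen. Within lot batches 1 to 4 the median difference of the tested arrest genes was 0.36, 0.58, 0.22 and 0.18.

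With its Bnip genes and Bag cochaperones, the BCL2-family list gives counts that are not of BCL2 homologs alone. Of its 33 genes 16 were on the array and 14 were tested, 7 higher and 7 lower in Cx43 KO. These 14 had a median difference of 0.01, and within lot batches 1 to 4 of 0.08, 0.18, -0.14 and 0.03. Of the 11 that are not members, 5 were higher and 6 lower, with a median of -0.04, and 0 lay below an unadjusted p of 0.05, while limma's adjusted test called 0. Bcl2, the founding survival gene, had the widest error, a difference of 0.28 with an SE of 0.51, and its lowest value lay on Cx43 KO 4 (0.22, against 1.95 to 2.48 on the other Cx43 KO arrays and 1.09 to 1.93 in WT). The pore-forming Bak1 differed by 0.15 (SE 0.37) and its relative Bok by -0.52 (SE 0.26, 3 Cx43 KO arrays), and the BH3-only Bad by -0.13 (SE 0.25). Bnip3l, the mitophagy receptor most like Bnip3, averaged 0.42 in Cx43 KO and 0.36 in WT, a difference of 0.06 (SE 0.23). Bnip1 differed by -0.09 and Bnip2 by 0.06, Bcl2l12 by -0.04 and Bcl2l13 by -0.18, and the cochaperones Bag2 and Bag4 by -0.18 and 0.14. Among these 14 genes Bnip3 and Bcl2l1 had the largest positive differences, and members were chosen by such differences. Mcl1 and Bcl2l10 had a ratio on 0 arrays.

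**Figure D4:**
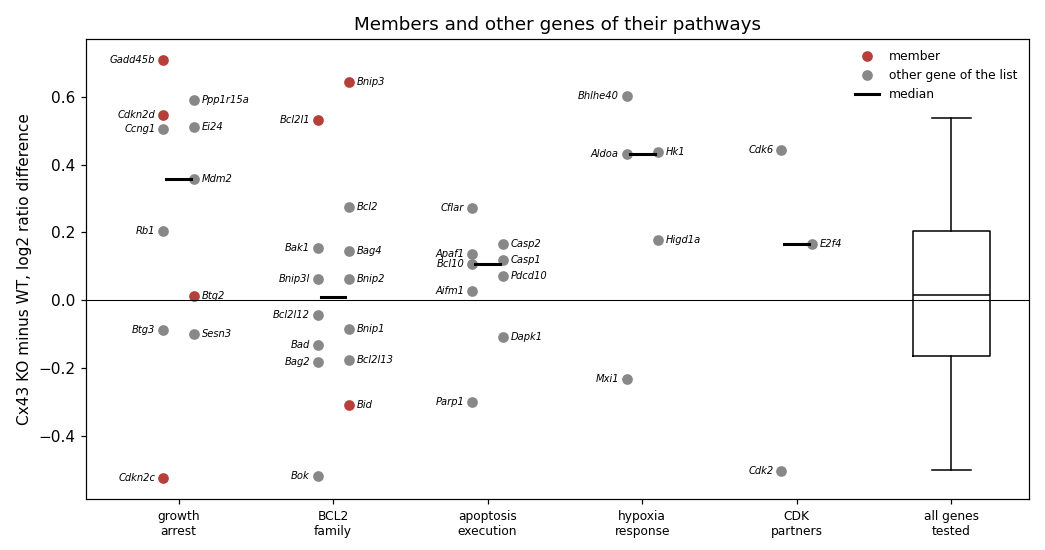
Cx43 KO minus WT difference in log2 ratio (vertical axis) for every tested gene of 5 lists, members in red, other genes in grey and the list median as a black bar, beside a box plot of all 3505 genes and features with whiskers at the 5th and 95th percentiles. The growth arrest list has its median at 0.36 and the BCL2-family list at 0.01.

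Downstream of the BCL2 family, 9 of the 23 apoptosis execution genes on the array were tested, 7 higher and 2 lower, with a median of 0.11 and 0 below either threshold. Parp1, the DNA repair enzyme that executioner caspases cleave, differed by -0.30 (SE 0.23), the caspase-8 regulator Cflar by 0.27 (SE 0.25) and Casp2 by 0.17 (SE 0.18). Of the hypoxia response genes, read beside Bnip3, 5 were tested, 4 higher and 1 lower (median 0.43), and 0 lay below either threshold. Bhlhe40, a hypoxia-induced repressor, differed by 0.60 (SE 0.31), and the glycolytic genes Hk1 and Aldoa by 0.44 (SE 0.23) and 0.43 (SE 0.22). Higd1a differed by 0.18 (SE 0.27), and Mxi1 was the lower one, at -0.23 (SE 0.17). Among the kinases and transcription factors that act with or downstream of INK4 inhibitors 3 were tested. Cdk6, a direct target of both inhibitors, averaged 1.66 in Cx43 KO and 1.21 in WT, a difference of 0.44 (SE 0.27). Cdk2 averaged -0.71 in Cx43 KO and -0.21 in WT, a difference of -0.50 (SE 0.18, adjusted p = 0.655), the only one of these 3 below an unadjusted p of 0.05, lower in Cx43 KO, as were 3.65% of all genes. The Rb-binding factor E2f4 differed by 0.17 (SE 0.22), while Ccnd1, Ccnd2 and Ccne1 had a ratio on 0 arrays.

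Profiles over the 8 arrays were compared by the root mean square distance between 2 genes, each taken relative to its own mean, against 2162 other named genes with 8 values. Nearest to Cdkn2c were Trim24, a nuclear receptor cofactor, at a distance of 0.08 and the splicing factor Srsf1 at 0.13, where the median gene lay at 0.47. Both, like Cdkn2c, were lowest on Cx43 KO 4, and differed by -0.42 and -0.32 between genotypes. Such likeness follows from their choice by distance over these same arrays. Nearest to Bcl2l1 were Zyg11b (0.13) and Zfp672 (0.14), and to Cdkn2d Brox (0.18) and the cadherin Cdh3 (0.19). Gadd45b lay nearest to Snw1 and Samd14, at 0.20 each (median gene 0.51). Distances depend on the spread of a member's own profile, a root mean square of 0.43 for Gadd45b and 0.31 for Bcl2l1. They therefore do not rank the members by closeness of match. The profile of Bnip3, with its low values on Cx43 KO 3 and WT 1, was nearest to Acbd3 (0.24) and, second, to Ccng1 (0.28), which is itself among the p53 targets above. A short distance describes these 8 arrays and says nothing of shared control.

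**Figure D5:**
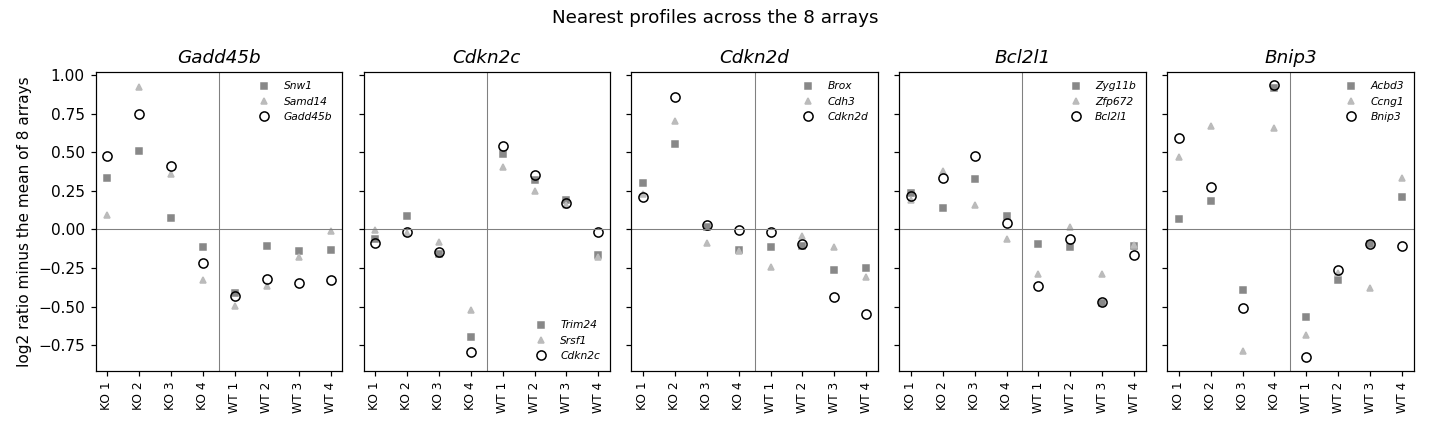
Log2 ratio of each member with 8 values (open circles) and of its 2 nearest named genes (grey symbols), relative to each gene's mean over 8 arrays, for Cx43 KO arrays 1 to 4 left of the line and WT arrays 1 to 4 right of it. Trim24 and Srsf1 follow Cdkn2c down on Cx43 KO 4, and Acbd3 and Ccng1 share with Bnip3 the low value on Cx43 KO 3.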

How the data were processed

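The deposited table holds signed log ratios between 2 channels, read as log2. Per the labels, channel 2 held astrocyte RNA and channel 1 the pool. The base, dyes, scanner, background correction and normalization are not stated in the labels used here. Another base would rescale all differences by 1 factor. Exact 0, which filled 42.4% to 63.4% of features on an array, was read as missing. Medians of the other ratios lay between 0.09 and 0.32 before centring. Features with 1 symbol in the platform annotation (7307 of 9568, 318 with several and 1943 unnamed, 7256 matched to GRCm38.p6 by Entrez number) were averaged per gene, and the others entered singly. Genes with at least 3 values per genotype (3505) were fitted with limma 3.58.1 (lmFit and eBayes, R 4.3.3), two-sided, adjusted by Benjamini-Hochberg and called at 0.05. The pool ratio is the mean of both genotypes in the same fit. The fit was tested on simulated data.

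Members, lists, tests and alternatives were chosen with earlier results of these data known. Named were all members, all tested genes of the inhibitor, GADD45, BTG and BCL2 lists, the 3 other genes of each further list with the largest absolute difference, and the 2 nearest profiles per member. Other genes named, among them those with no ratio, were chosen after their values were seen. The lot batch in the labels pairs same-numbered arrays, although the departures of paired arrays from their genotype means had correlations over genes of -0.18, 0.19, -0.13 and -0.19 for numbers 1 to 4.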

Additional observations from a re-analysis of the deposited data

Results flagged for a closer look

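In Cx43 KO, Cdkn2c on array 4 (-1.12) lay far below the other 3 arrays (-0.48 to -0.34). Its gap to the nearest of them was 0.830 of the range of the 4 arrays, just above Dixon's critical value for 4 values. Of the 12 sets of 4 values examined (7 members, 2 genotypes, those with all 4 arrays), this was the only one past that value, and chance flags about 1 in 20. Without the array the Cdkn2c difference was -0.35, against -0.53 with it. The same array had the highest mean of microglia markers, and their part in the value was not tested.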

How the results depend on the processing

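Across 20 other settings the differences of Gadd45b, Cdkn2c, Cdkn2d, Bcl2l1 and Bnip3 kept their sign, ranging over 0.58 to 0.91, -0.62 to -0.35, 0.35 to 0.69, 0.39 to 0.64 and 0.39 to 1.00. Bid (-0.38 to -0.19) and Btg2 (-0.13 to 0.21) had a value in 13 of them, as the other 7 required more WT values than were left. A difference moved by over 1.5 times in 2 settings for Bnip3, in 1 each for Cdkn2c, Cdkn2d and Bid and in 9 for Btg2, whose value lay near 0. With lot batch as a replicate block limma called 0 genes and 196 lay below an unadjusted p of 0.05, against 263 without it. The block changed no call of a member besides that of Bcl2l1 over the pool. The unadjusted count was 471 with array weights, 140 to 384 with 1 array left out, and 102 to 427 with 1 lot batch left out, with fewer genes tested. The adjusted count ran from 0 to 4 in those fits, with 4 without Cx43 KO 4 and 1 without WT 2, and 0 of these were members. The arrest list median was 0.15 with exact 0 kept as a ratio, where the tested genes changed, and 0.26 to 0.46 when leaving out arrays or lot batches, and the BCL2-family median -0.04 to 0.11. Over the pool, 50.7% of called genes lay above it, and 65.5% without centring. There Gadd45b passed in 19 of 20 settings, Cdkn2d in 20, Cdkn2c in 14, Bcl2l1 in 12, Bnip3 in 0, Bid in 11 of 13 and Btg2 in 2 of 13. Of the alternatives listed, quoting each feature singly changed no member difference. The cause of these changes was not tested.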
